A study of Onthophagus taurus with 66 samples.

Results

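In *Onthophagus taurus*, a horned dung beetle, the change in expression from the lateral anterior (LatA) to the lateral posterior (LatP) dorsal head was compared between males and females. The comparison rests on the 44 lateral libraries of the 66 in the series, which come from 6 males and 5 females, all large pre-pupae in the last hours before pupation from laboratory colonies founded with wild-caught beetles. Neither sex carried a transgene or received a treatment. From each animal the dorsal head epithelium was cut into 6 pieces, the left and right LatA, the left and right LatP, a medial anterior piece (MA) and a medial posterior piece (MP), and remnants of eye, brain, labrum and muscle were removed. For each animal the counts of the left and right piece of a region were added, which gave 22 summed pieces, and the change is log2 CPM in LatP minus log2 CPM in LatA within that animal, where CPM is the count scaled to a common library total. A positive change is a higher level in LatP. The difference between the sexes is the male change minus the female change.

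Horns of this species are outgrowths of the epidermis that large males form as a pair on the posterior lateral head, whereas females form a low ridge there. In the pre-pupa the head epidermis has detached from the larval cuticle, grows beneath it and secretes the cuticle of the pupa. Insect cuticle is made of chitin and of structural proteins, many of them glycine-rich or carrying a chitin-binding domain, and it is hardened and coloured by tanning enzymes. Regions of the head are set up by transcription factors and by signals such as Hedgehog and Wnt.

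Summed pieces held 24086136 to 32253459 counts, and before TMM scaling a count of 3 was 0.125 CPM in the smallest and 0.093 CPM in the largest. After scaling, 2529 counts of XM_023055936.1 were 55.6 CPM in LatP of female 3 (27818659 counts in all). In LatP of male 4 (32140586 counts in all), 1286 counts were 56 CPM. The differences between the sexes rest on this scaling. The ratio of LatP to LatA totals had a median of 1.14 in males (range 0.922 to 1.27) and 0.914 in females (range 0.883 to 1.05). Of the 44 lateral libraries, 3 were nearest to another region when compared with the mean profiles of the other animals: the left LatA of female 2, which resembled no region (correlation −0.0223 with LatA and 0.022 with MP), and the left and right LatA of male 1, which were nearer to MA (0.275 and 0.428) than to LatA (0.248 and 0.368). Counts of transcripts whose change differed between the sexes are therefore given with and without these 2 animals. Muscle markers (12 of 14 tested, 0 called, 1 at an unadjusted p under 0.05, 0 by DESeq2 and 0 by limma) summed to medians of 52.8 CPM in male LatA (14.9 to 168), 48.3 in male LatP (18.9 to 91), 65.6 in female LatA (55.1 to 228) and 210 in female LatP (36.3 to 312), and their part in the results was not tested. Photoreceptor markers stood at medians of 0.57 and 0.491 CPM in male and female LatA and 19.7 and 21.9 CPM in male and female LatP. The pieces are bulk tissue, so a smaller share of a cell type and less RNA per cell cannot be told apart. Transcripts naming the epidermis, the labelled tissue, were not identified in the annotation used here.

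The LatP minus LatA change differed between the sexes for 44 of 12517 transcripts tested (0.352%), by edgeR's quasi-likelihood test with a term for each animal and Benjamini-Hochberg adjustment at 0.05. For 41 of them (0.328% of those tested) the male change was the more positive, and for 3 (0.024%) the female change. Over all tested transcripts 47.7% of the differences were positive and their median was −0.024. TMM scaling holds this median near 0, so the balance is not a result. At an unadjusted p under 0.05 there were 981 transcripts with a more positive male change and 688 with a more positive female change. Differences of the 44 ranged in size from 0.43 to 6.44 on the log2 scale, and 36 exceeded 1. In 42 of the 44 the per-animal changes of the sexes did not overlap, with males above in 39. The calls rest on these same changes, so this describes them and adds nothing to the test; over all tested transcripts males lay above in 1.57% and below in 0.623%. The overlap in the other 2, XM_023056825.1 and XM_023045436.1, came with a male 1 far below the other males. None of the 450 noncoding transcripts tested was called.

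**Figure D1:**
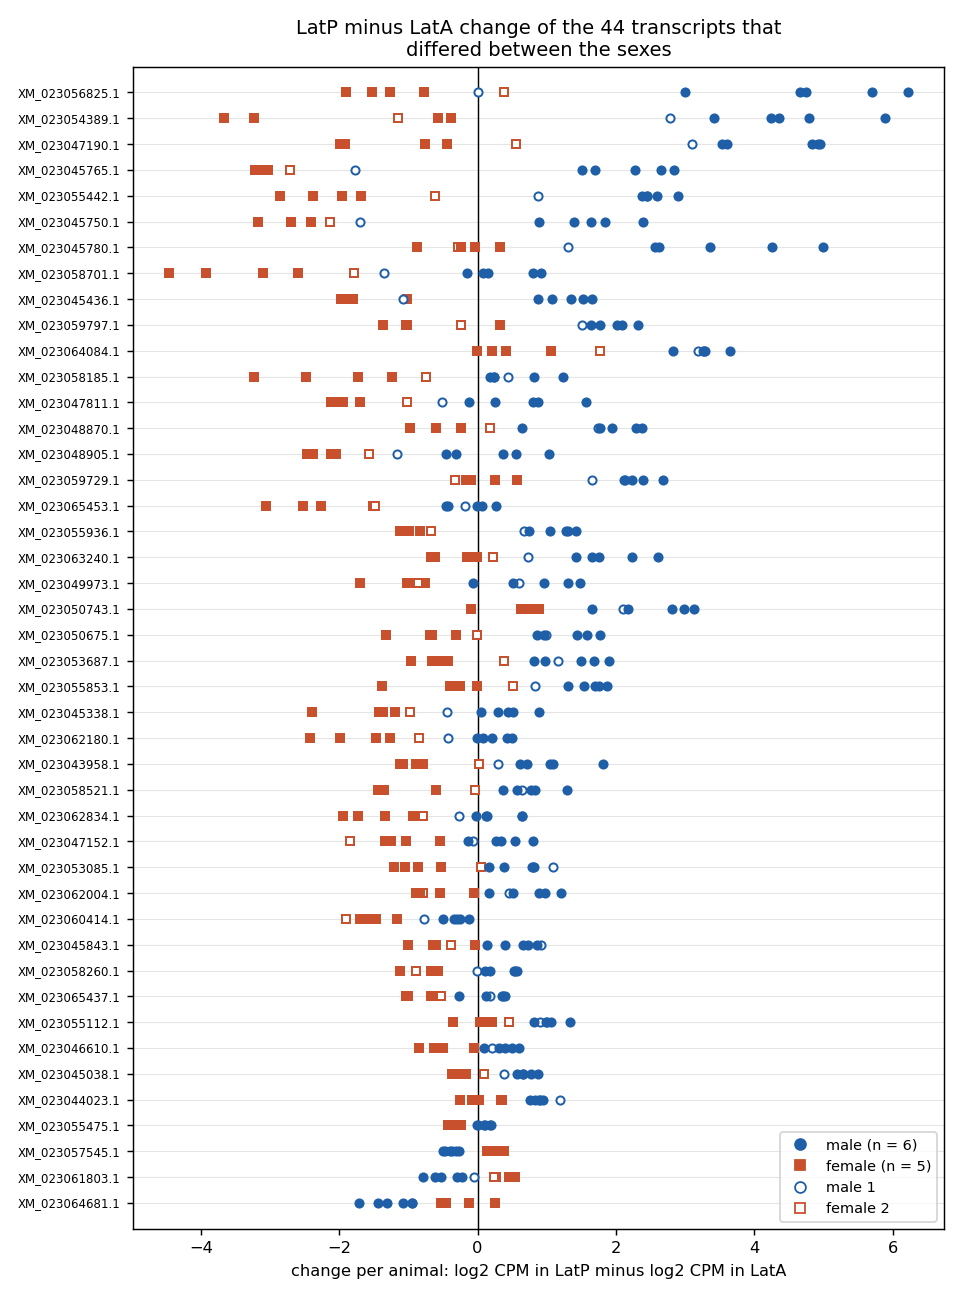
Change in log2 CPM from LatA to LatP in each of 6 males and 5 females for the 44 transcripts whose change differed between the sexes; each marker is 1 animal, and open markers are male 1 and female 2. Males lie to the right of females in 41 of the transcripts, without overlap in 39.

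Male 1 had the lowest male change in 23 of the 41 transcripts, and female 2 the highest female change in 28. How often each was extreme over all tested transcripts was not counted. Without both animals, an alternative chosen after the data were seen, 431 of 12157 transcripts differed (3.55%), 408 with a more positive male change (3.36%) and 23 with a more positive female change (0.189%), and the 44 were all among them. Leaving out 1 animal gave 293 calls without female 2, 172 without female 1 and 149 without male 1, each holding all 44, but 12 without female 3, 15 without female 4, 7 without female 5, 8 without male 2, 15 without male 3, 7 without male 4, 17 without male 5 and 5 without male 6. Transcripts XM_023055936.1, XM_023059729.1, XM_023055442.1, XM_023047190.1 and XM_023064084.1 kept their call whichever animal was left out. No called difference changed sign in any of these fits. Without the pairing of the pieces by animal, 1 transcript was called.

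Set against the change within each sex, the 41 transcripts fell into 3 kinds by which changes were called. These kinds depend on the threshold, and a change not called may still be large. In 18 the level was lower in LatP than in LatA in females and the male change was not called; in 17 it was higher in LatP in males and the female change was not called; and in 6 both changes were called in opposite directions. Among the 3 transcripts with a more positive female change, 2 changed in opposite directions and 1 was lower in male LatP with no call in females. In all, 370 transcripts were higher in LatP in males (2.96%) and 196 higher in LatA (1.57%), whereas in females 335 were higher in LatP (2.68%) and 541 higher in LatA (4.32%). Of the transcripts called within both sexes, 247 had the same direction and 8 the opposite one, all of them among the 44. The male total of 566 was 370 without male 3, 353 without male 4 and 366 without male 6, and the female total of 876 was 1323 without female 1, 373 without female 3, 302 without female 4 and 324 without female 5.

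**Figure D2:**
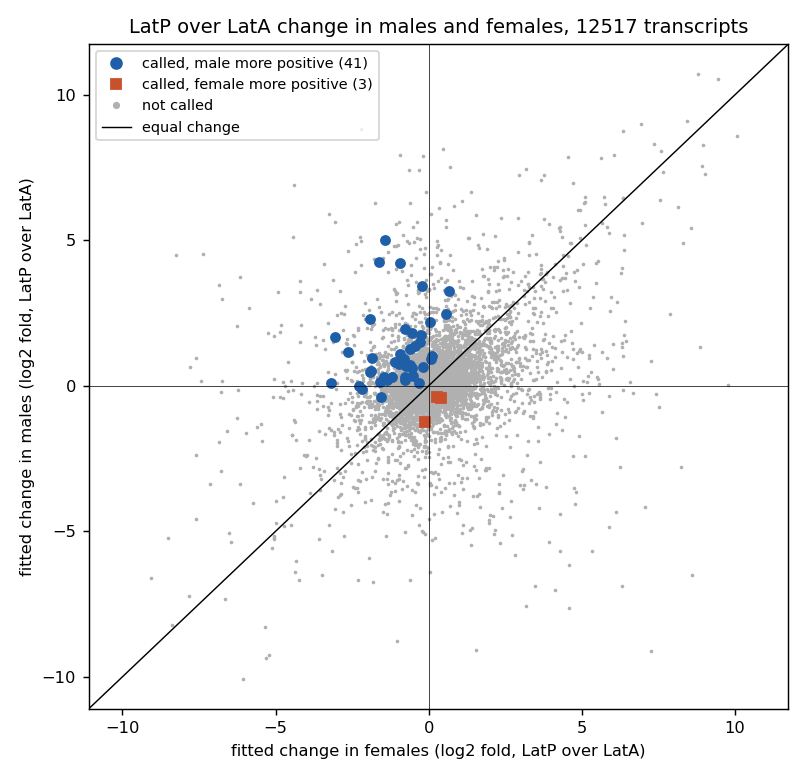
Fitted LatP minus LatA change in males (vertical) against females (horizontal) on the log2 scale, 1 point for each of 12517 transcripts; coloured points are the 44 whose change differed between the sexes. Of these, 41 lie above the line of equal change and 3 below.

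Several of the named transcripts encode repetitive or secreted proteins. XM_023047190.1 is called tetra-peptide repeat homeobox protein 1-like in the annotation, but its best match in the flour beetle *Tribolium* is a fibroin heavy chain, the name of a structural silk protein. Its level in males 1 to 6 was between 1.31 and 16.6 CPM in LatA and 107, 517, 213, 84.4, 15.9 and 446 CPM in LatP. In females 1 to 5 it was 3.58, 2.41, 5.09, 12 and 6.4 CPM in LatA and 2.61, 3.58, 1.23, 7.05 and 1.64 CPM in LatP. Every male rose and 4 of 5 females had a lower value in LatP, so that the lowest male LatP level lay above the highest female one. The change was 4.20 in males and −0.94 in females (adjusted p = 0.206 for the latter), a difference of 5.14 ± 0.57 (SE, adjusted p = 0.00707).

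XM_023054389.1 carries the same product name and the same *Tribolium* match, so reads may have been divided between it and XM_023047190.1. It reached 72.8, 684, 196, 134, 77.3 and 122 CPM in LatP of males 1 to 6, against 2.85, 0.951, 0, 5.38 and 0.469 CPM in females 1 to 5. Its LatA levels were 4 to 12.5 CPM in males and 0.601 to 7.07 CPM in females. Levels differed widely among males in LatP but did not overlap with those of females, and the changes differed by 5.86 ± 0.84 (adjusted p = 0.023).

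Shematrin-like protein 2 (XM_023045765.1, LOC111414425, chromosome 11 of assembly IU_Otau_3.0) shares that *Tribolium* match and is named after glycine-rich shell proteins of oysters. In females 1 to 5 its level was 166, 210, 12.9, 52.2 and 27.2 CPM in LatA and 17.8, 32, 1.52, 6.03 and 2.91 CPM in LatP. In males it was 22.2 to 127 CPM in LatA in males 2 to 6, with male 1 above them, and 69.4, 321, 106, 801, 71.9 and 444 CPM in LatP of males 1 to 6. All 5 females were lower in LatP with changes between −3.22 and −2.72, and 5 of 6 males were higher, at 1.51 to 2.84, with male 1 at −1.77. The fitted female change was −3.07 (adjusted p = 0.00881), the male change 1.69 (adjusted p = 0.0946) and the difference 4.76 ± 0.73 (adjusted p = 0.0341).

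Serine protease 7-like (XM_023064084.1, LOC111428529, chromosome 10) belongs to the secreted enzymes that cleave other proteins, and its best *Drosophila* match acts in the immune response to Gram-positive bacteria. Its LatP level was 72.4, 91.8, 83.2, 72.8, 75.8 and 48.9 CPM in males 1 to 6 and 3.8, 5.25, 30.5, 9.23 and 15.1 CPM in females 1 to 5. In LatA it was 5.01 to 10.7 CPM in males and 1.49 to 13 CPM in 4 of 5 females, with female 3 a little above. The sexes overlapped in LatA and not in LatP. The male changes lay between 2.82 and 3.64 and the female changes between −0.01 and 1.77, a difference of 2.58 ± 0.30 (adjusted p = 0.00908).

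XM_023059729.1 (LOC111425600, chromosome 8) matches a *Tribolium* protein with LIM and calponin homology domains, the latter found in proteins that bind actin. Males 1 to 6 held 18.4, 29.9, 22.1, 32.7, 22.2 and 28.1 CPM in LatA and 57.7, 192, 97.5, 172, 105 and 122 CPM in LatP. Females 1 to 5 held 19.3, 28.8, 22.4, 29.1 and 24.4 CPM in LatA and 28.6, 22.9, 19.9, 27.2 and 29.1 CPM in LatP. The sexes overlapped in LatA, and in LatP every male lay above every female. The change was 2.21 in males and 0.04 in females, and its difference of 2.16 ± 0.21 (adjusted p = 0.00362) was the one call kept in each alternative fitted per transcript, animals left out included.

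XM_023055853.1 (LOC111422637, chromosome 1), which the study classed as taxon-restricted and injected double-stranded RNA against, held 169, 257, 196, 190, 178 and 205 CPM in LatP of males 1 to 6 and 34.8, 126, 34, 35.4 and 24.6 CPM in LatP of females 1 to 5. In LatA the range was 51.6 to 95.2 CPM in males and 24.7 to 92 CPM in females. Female 2 was the highest female in LatP but remained below the lowest male, and the difference in change was 1.80 ± 0.31 (adjusted p = 0.0427). The study reported no observable abnormality after its injection. It reported the same for XM_023064084.1, XM_023054389.1 and XM_023056824.1, which it also injected against.

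**Figure D3:**
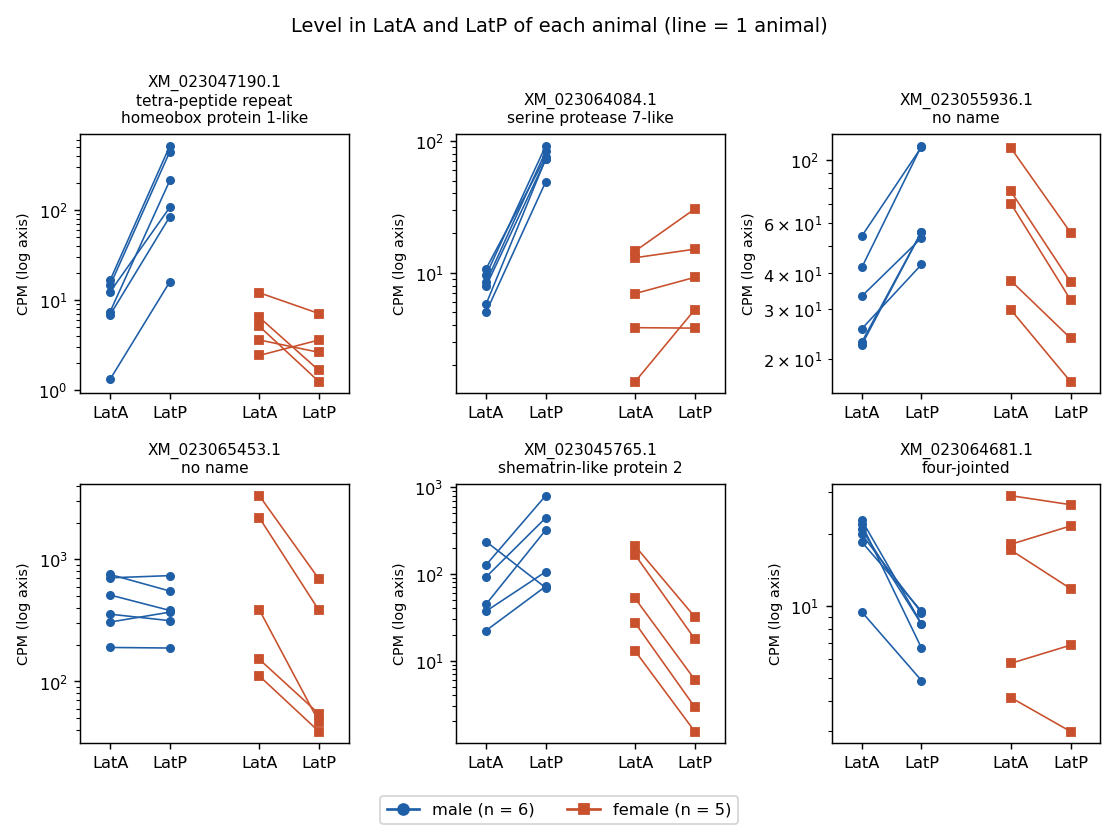
Level in CPM (log axis) in LatA and LatP of each animal for 6 transcripts, with a line joining the pieces of 1 animal. In XM_023047190.1 and XM_023064084.1 the males rise and separate from the females in LatP, and in XM_023065453.1 the females fall from LatA to LatP while the fitted male change is −0.12.

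In some other transcripts the larger fitted change was that of the females. XM_023058701.1 (LOC111424960, chromosome 6) matches a C-type lectin of *Tribolium*, a family of carbohydrate-binding proteins. Females 1 to 5 held 1650, 289, 51, 655 and 45.5 CPM in LatA and 75.3, 83.5, 5.91, 43.2 and 7.49 CPM in LatP. Males held 319 to 2290 CPM in LatA and 287 to 1210 CPM in LatP. Levels differed widely among females, yet all 5 were lower in LatP, with changes of −4.45 to −1.79, while the male changes were −1.36 to 0.92. The fitted change was −3.18 in females (adjusted p = 0.00252) and 0.08 in males, a difference of 3.27 ± 0.55 (adjusted p = 0.0385).

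XM_023065453.1 (LOC111429518, chromosome 7), which has no name in the annotation used here, stood at 111, 152, 2200, 387 and 3330 CPM in LatA and 38.9, 54.3, 383, 46.6 and 691 CPM in LatP of females 1 to 5. Males 1 to 6 held 356, 707, 511, 307, 753 and 190 CPM in LatA and 315, 737, 382, 370, 551 and 188 CPM in LatP. Females 3 and 5 were far above the other females in both pieces, and the change within each animal was nevertheless negative in all 5. It was −2.17 in females and −0.12 in males, a difference of 2.05 ± 0.29 (adjusted p = 0.023).

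XM_023055936.1, also without a name, changed in opposite directions and had the smallest adjusted p (0.00101). Its level in males 1 to 6 was 33.3, 42, 25.6, 23, 54.1 and 22.5 CPM in LatA and 53.3, 112, 43, 56, 111 and 56 CPM in LatP. In females 1 to 5 it was 29.8, 37.7, 110, 70.2 and 77.5 CPM in LatA and 16.7, 23.7, 55.6, 32.3 and 37.3 CPM in LatP. All 6 males were higher and all 5 females lower in LatP, with fitted changes of 1.08 and −0.93 and a difference of 2.01 ± 0.16. Within a piece the levels of the sexes overlapped. XM_023055442.1 had the same form and a larger size, with changes of 2.29 in males and −1.91 in females and a difference of 4.20 ± 0.45 (adjusted p = 0.00707). In 9 of the 41 transcripts 6 of 6 males were positive and 5 of 5 females negative, and in 2 of the 3 transcripts with a more positive female change the signs were the reverse in all 11 animals. The calls rest on these same changes, and the share over all tested transcripts was not counted.

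Other transcripts without a name took part in each kind of change. XM_023050743.1 stood at 496, 369, 915, 2210, 293 and 1400 CPM in LatP of males 1 to 6 and at 23.1 to 138 CPM in LatP of females, with changes of 2.48 in males and 0.56 in females (difference 1.91 ± 0.29, adjusted p = 0.0341). XM_023063240.1 (LOC111427884, chromosome 6) stood at 39.9 to 103 CPM in male LatP and 8.75 to 17.3 CPM in female LatP, with changes of 1.74 and −0.25 (difference 1.99 ± 0.32, adjusted p = 0.0341). In both the male and female LatP levels did not meet. In XM_023059797.1 the changes were 1.507 to 2.312 in males and −1.371 to 0.325 in females. XM_023045038.1 had 0.387 to 0.879 in males and −0.372 to 0.093 in females. For XM_023050675.1 they were 0.854 to 1.775 and −1.322 to −0.012, and for XM_023058260.1 −0.011 to 0.569 and −1.114 to −0.565. XM_023060414.1 fell in every animal, with changes of −0.773 to −0.127 in males and −1.904 to −1.164 in females.

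XM_023058185.1 (LOC111424587, chromosome 7) held 293, 305, 261, 726 and 381 CPM in LatA and 46.6 to 181 CPM in LatP of females 1 to 5, against 410 to 649 CPM in LatA and 496 to 1130 CPM in LatP of males. All 5 females were lower in LatP, the fitted female change was −1.88 (adjusted p = 0.00812) and the male change was 0.52 (adjusted p = 0.404). Its difference was 2.4 ± 0.42 (adjusted p = 0.0459) in the lateral pieces and 2.89 in the medial pieces (unadjusted p = 8.19e-05). XM_023055475.1 (LOC111422273, chromosome 1) had the smallest difference of the 44, 0.43 ± 0.07 (adjusted p = 0.0444), with 17 to 20.9 CPM in female LatP and 24.4 to 38 CPM in male LatP. Even there the 5 female changes, −0.42 to −0.24, lay below the 6 male changes, −0.01 to 0.20.

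Four-jointed (XM_023064681.1), a kinase that in *Drosophila* acts on the cadherins Fat and Dachsous in planar polarity and growth, was the named transcript with a more positive female change. Its level in males 1 to 6 was 9.43, 19.9, 22.8, 18.5, 21.9 and 20.9 CPM in LatA and 4.87, 9.35, 8.42, 9.5, 6.66 and 8.38 CPM in LatP. In females 1 to 5 it was 4.13, 5.75, 28.9, 17.1 and 18.1 CPM in LatA and 2.98, 6.85, 26.5, 11.8 and 21.6 CPM in LatP. It fell in all 6 males, by 1.25 on the log2 scale, and the female change was −0.12 (adjusted p = 0.696). The difference was −1.13 ± 0.20 and just inside the threshold (adjusted p = 0.0499). XM_023057545.1 (LOC111424114, chromosome 11) and XM_023061803.1 (LOC111426914, chromosome 2), both without a name, moved less: the former had changes of −0.39 in males and 0.28 in females (difference −0.67 ± 0.08, adjusted p = 0.0144), and the latter −0.42 and 0.39 (difference −0.81 ± 0.14, adjusted p = 0.0427). At the threshold, XM_023048905.1 (2.29, adjusted p = 0.0497) lay just inside and XM_023046186.1 (1.95) and XM_023064377.1 (1.59), both at an adjusted p of 0.0526, just outside.

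Levels of males and females were also compared within each region, in the same samples. In LatP 224 of 11424 transcripts differed between the sexes (1.96%), and in LatA 0 of 10911 (0%), where 836 had an unadjusted p under 0.05 and the smallest adjusted p by edgeR was 0.613. The 3 libraries nearest to another region were all from LatA and were kept in the LatA comparison, which was not run without them. The counts in LatP and LatA are therefore not on an equal footing. Of the 44 transcripts, 19 differed between the sexes in LatP, 0 in LatA and 25 in neither region. Among the 19, XM_023054389.1 was higher in male LatP by 6.80 (adjusted p = 0.0324), XM_023047190.1 by 6.16 (adjusted p = 0.0177), XM_023058701.1 by 4.25 (adjusted p = 0.0269) and XM_023059729.1 by 2.29 (adjusted p = 0.00926). By mean level over the 8 groups of sex and piece, 23 of the 41 were highest in male LatP, which the choice of transcripts favours. Another 10 were highest in male MP, 4 in female LatA, 3 in male MA and 1 in female MP. Over all tested transcripts the shares in these groups were 9.15%, 17.5%, 12.6%, 10.7% and 13.4%, in the same order.

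The medial pieces of the same animals, which the comparison did not use, gave a second measure of the posterior minus anterior difference. They come from the same heads, so a shared direction is not a test in new replicates. No transcript of 12079 was called there (0%, smallest adjusted p = 0.0968 by edgeR), and 650 had an unadjusted p under 0.05 (5.38%), 377 with a more positive male change (3.12%) and 273 with a more positive female change (2.26%). Of the 41 transcripts, 36 had a more positive male change in the medial pieces too, 24 of them at an unadjusted p under 0.05. Their median difference was 0.89 in the medial and 1.91 in the lateral pieces, against 0.02 over all transcripts in the medial pieces. XM_023055853.1 had a medial difference of 1.47 (unadjusted p = 0.000145) beside 1.80 in the lateral pieces, and XM_023048870.1 2.77 (unadjusted p = 7.46e-05) beside 2.35. The tetra-peptide repeat transcripts did not share this: XM_023054389.1 had a medial difference of 0.00 (unadjusted p = 0.992) and XM_023047190.1 of 0.38 (unadjusted p = 0.533). Of the 3 transcripts with a more positive female change, 1 had the same sign medially and 0 an unadjusted p under 0.05.

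**Figure D4:**
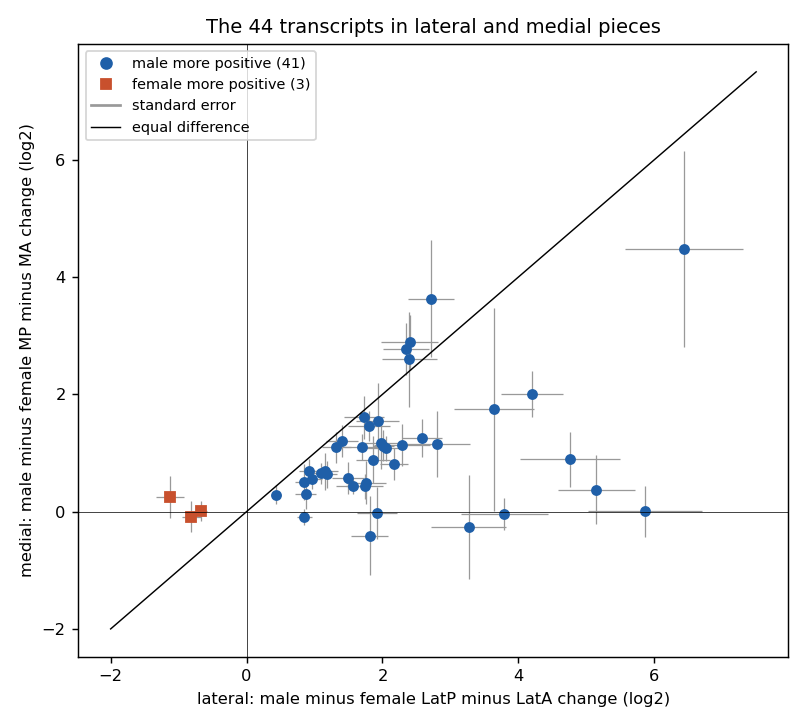
Difference between the sexes (male minus female change, log2) in the lateral pieces (horizontal) and in the medial pieces (vertical) for the 44 transcripts, with bars of 1 SE. Of the 41 transcripts right of 0, 36 lie above 0 in the medial pieces, and 4 have a larger medial than lateral difference.

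Left and right pieces were fitted apart to compare the sides of the head. Both sides come from the same animals, so agreement between them is not a test in new replicates. The left pieces alone gave 28 calls of 12523 (0.224%) and the right pieces alone 10 of 12518 (0.0799%). All 28 left calls had the same sign on the right, 27 of them at an unadjusted p under 0.05, which 9.8% of all transcripts reached on the right. All 10 right calls had the same sign and an unadjusted p under 0.05 on the left, where 9.61% did. Of the 44, which were called on the sum of both sides, 4 were called on each side alone.

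Cuticle proteins were the list with the most members at an unadjusted p under 0.05, 13 of 25 tested (13.3% over all transcripts), and their median difference was 1.18 (−0.02 over all transcripts), but 1 was called. The differences were positive in 17 and negative in the rest, among them XM_023064424.1, a match to cuticular protein 76Bb (−4.88 ± 1.24, adjusted p = 0.13), in which male changes lay below female changes without overlap. Their members, like those of the other lists, were named by the study from these samples, mostly for differences between regions, so the counts are not independent evidence. Cuticular protein 67B, isoform X2 (XM_023056825.1), was the member called, at 6.44 ± 0.87 (adjusted p = 0.023). In LatP it held 0, 8.08, 9.88, 20, 15.8 and 42.2 CPM in males 1 to 6 and 0.0235 to 0.394 CPM in females. Male 1 had no count of this isoform in either piece, and with isoform X1 (XM_023056824.1, 5.44 ± 1.07, adjusted p = 0.0706) added, which takes away the division of reads between them, male LatP held 4.16 to 77.3 CPM (median 23.4) and female LatP 0.0469 to 0.689 CPM (median 0.283). No female piece exceeded 0.505 CPM of X2 or 0.899 CPM of X1. Both isoforms therefore passed the filter of 1 CPM through male pieces alone, and so did the only call of this list. Lcp65Ac (XM_023053048.1), a match to a larval cuticle protein, had a difference of 4.17 ± 0.91 that did not pass (adjusted p = 0.0843), with 4.17 to 49.1 CPM in male LatP and 0 to 0.915 CPM in female LatP. In LatA it held 11.9 to 62.2 CPM in males and 4.54 to 17.3 CPM in females, and it was lower in LatP in every animal. Without male 1 and female 2, 5 of 21 cuticle proteins were called (23.8%, against 3.55% of all transcripts), all with a more positive male change. With all animals DESeq2 called 9 in that direction and 3 in the other, against 5.15% and 1.6% of all transcripts, and limma called 2, against 0.16%.

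Of the 4 chitin and tanning transcripts 0 were called by edgeR, 1 had an unadjusted p under 0.05, 1 was called by DESeq2 and 0 by limma, and the median difference was 0.20. Ebony (XM_023055814.1), which makes the tanning precursor N-beta-alanyldopamine, had 73 to 500 CPM in male LatP and 27.6 to 128 CPM in female LatP and a difference of 1.64 ± 0.39 (adjusted p = 0.114, or 0.000676 by DESeq2). Its LatA levels were 199 to 452 CPM in males and 77.2 to 859 CPM in females, and every animal but male 2 was lower in LatP. The other 3 had differences between −0.56 and 0.27. Dumpy (XM_023063189.1), listed with planar polarity and cell shape, is a giant matrix protein that fastens *Drosophila* epidermis to cuticle, and it had 22.8 to 193 CPM in male LatP and 4.07 to 8.2 CPM in female LatP and a difference of 3.09 ± 0.79 (adjusted p = 0.13, or 0.000323 by DESeq2). The ranges of dumpy did not meet in LatP, and in LatA they were 44.6 to 112 CPM in males and 14 to 76.8 CPM in females. Without male 1 and female 2 ebony and dumpy passed (each adjusted p = 0.00603).

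Head and appendage transcription factors (46 of 58 tested) had a median difference of −0.10 and 0 calls by edgeR, with 6 at an unadjusted p under 0.05. That is close to the 13.3% of all transcripts at this p. DESeq2 called 4 with a more positive male change and 1 with a more positive female change, beside 5.15% and 1.6% of all transcripts, and limma called 0. Retinal homeobox (XM_023059686.1), a regulator of anterior head and brain, was the closest to a call. It held 30.2, 22.5, 51.1, 45.8 and 55.8 CPM in LatA and 3.63, 4.33, 3.5, 2.04 and 6.06 CPM in LatP of females 1 to 5. Males held 36.8 to 45.7 CPM in LatA and 8.24 to 19.6 CPM in LatP. Males were above females in each LatP piece, and the difference of 1.74 ± 0.36 had an adjusted p of 0.0716, or 0.00737 without male 1 and female 2. Dachshund (XM_023050499.1), which patterns the middle of appendages in *Drosophila*, had 17.6 to 29.8 CPM in male LatP and 25.3 to 41.1 CPM in female LatP and a difference of −0.90 ± 0.23 (adjusted p = 0.132). Nervous fingers 2 (XM_023055831.1), a zinc finger protein, had changes above 0 in 6 of 6 males and below 0 in 5 of 5 females and a difference of 0.79 ± 0.19 (adjusted p = 0.11).

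The signalling lists gave no call by edgeR with all animals. Hedgehog (XM_023044715.1), the ligand of its pathway, held 3.45 to 7.05 CPM in male LatP and 7.39 to 11.3 CPM in female LatP, and its change differed by −0.48 ± 0.64 (adjusted p = 0.801). That value was −0.93 without male 1 and −0.21 without male 2. Over 3 transcripts of the Hedgehog list there were 0 at an unadjusted p under 0.05 and 0 calls by DESeq2 or limma. Wnt6 (XM_023058527.1), a secreted ligand, held 5.6 to 12.7 CPM in male LatP and 6.85 to 32.5 CPM in female LatP, with a difference of −0.94 ± 0.28 (adjusted p = 0.179). Its LatA levels were 33.4 to 86.9 CPM in males and 26.8 to 72 CPM in females, and it was lower in LatP in every animal. Of the 6 Wnt transcripts 2 had an unadjusted p under 0.05, 1 was called by DESeq2 with a more positive female change and 0 by limma. An insulin-like receptor transcript (XM_023058767.1), a receptor through which nutrition drives growth, held 10.6 to 27.7 CPM in male LatP and 3.05 to 4.57 CPM in female LatP, with a difference of 1.85 ± 0.88 (adjusted p = 0.396), or 2.43 without male 1 and female 2 (adjusted p = 0.0449). In LatA it had no count in female 2.

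The 10 eye and pigment transcripts had median changes of 4.34 in males and 4.94 in females and 0 calls for a difference, with 0 at an unadjusted p under 0.05 and 0 by DESeq2 or limma.

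**Figure D5:**
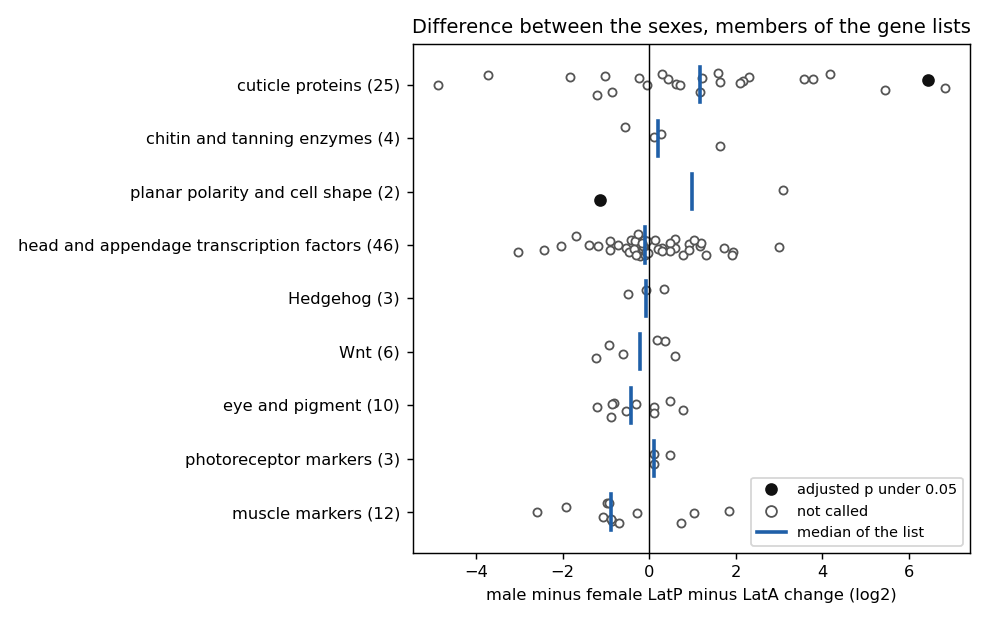
Difference between the sexes in the LatP minus LatA change (male minus female, log2) for the tested members of each gene list; each point is 1 transcript and the bar is the median of its list. Cuticle proteins have a median of 1.18 over 25 transcripts, and head and appendage transcription factors one of −0.10 over 46.

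Of the 44 transcripts 33 were matched to a gene of IU_Otau_3.0, which is newer than the gene models used for counting. Called genes made up 0.462% of the 7144 tested genes, from 0 of 667 on chromosome 5 and 4 of 1001 (0.4%) on chromosome 1 to 4 of 532 (0.752%) on chromosome 8 and 7 of 697 (1%) on chromosome 11. Of the 33 genes 5 had another called gene within 10 genes (15.2%), against 4.14% of all tested genes. On chromosome 2, XM_023062004.1 (difference 1.32), XM_023062834.1 (1.56) and XM_023062180.1 (1.74) lay within 4 consecutive genes, none of them named. Their neighbour XM_023062002.1 had a difference of 0.89 (adjusted p = 0.146). On chromosome 11, XM_023045750.1 (3.80 ± 0.64, adjusted p = 0.0385) lay 7 genes from shematrin-like protein 2. Neighbouring genes with near-identical copies could share reads.

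The size of the change over all transcripts was compared with 1 value for each animal. The SD of the change over the 12517 transcripts was 1.45 ± 0.06 (SD, n = 6) in males and 1.48 ± 0.07 (SD, n = 5) in females, a difference of −0.03 (two-sided exact permutation test, p = 0.483). The median absolute change was 0.334 ± 0.030 (SD, n = 6) in males and 0.445 ± 0.038 (SD, n = 5) in females. It was lower in each male (0.287 to 0.366) than in each female (0.409 to 0.497), by −0.112, with an exact p of 0.00216, the smallest that reassigning the animals to the sexes can give. With libraries thinned to 1 depth the difference was −0.109, and over transcripts above 5 CPM it was −0.095.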

How the data were processed

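RNA was sequenced with a stranded, single-end mRNA protocol. The authors trimmed reads with Trimmomatic 0.32, aligned them with Bowtie2 2.3.2 to *O. taurus* gene models and estimated counts with RSEM 1.3.0, which divides reads among isoforms. The deposited values are expected counts per transcript, not normalized, for 23725 transcripts; a sixth female was dropped by the authors. Libraries have no molecular identifiers, so limits of detection cover counting error only. Here counts of left and right pieces were added and rounded. Transcripts over 1 CPM in at least 5 of 22 pieces were fitted in R 4.3.3 with edgeR 4.0.16 (TMM, quasi-likelihood F-test, Benjamini-Hochberg adjustment), with a term for each animal and a LatP term for each sex. Adjusted p-values without a tool name are from this fit; log2 CPM per animal used a prior count of 2. The pieces of an animal come from 1 head, so the design pairs them: deviations from the group mean correlated at 0.197 to 0.479 within animals (median 0.291) and at a median of −0.0793 between animals. Animals are the replicates. Alternatives were other scalings, filters, thinning, limma 3.58.1, DESeq2 1.42.0, each side alone and animals or libraries left out. Named transcripts were the 12 with the smallest p in each direction, up to 3 per gene list and the study's candidates; those past the threshold and 10 others have values printed. The other transcripts described were singled out after their values were seen, 3 of them (XM_023045765.1, XM_023058701.1 and XM_023055853.1) as the remaining called ones with an annotation. The members and lists were chosen with earlier results of these data known. Names came from the study's annotation of 380 transcripts, which covers 312 of those tested and 9 of the 44; lists for sex determination, cell cycle and cell death, and markers of epidermis, neurons, fat body and glia, had no member named there. The calculation was tested on simulated data, which held no differences between animals and so did not test the pairing.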

Additional observations from a re-analysis of the deposited data

Results flagged for a closer look

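The animals' changes of the 44 transcripts and 10 others described above, and the size of the change over all transcripts by its 2 measures, made 112 groups of 5 or 6 animals, of which 11 held 1 animal far from the rest by the 95% critical value of Dixon's test, a limit that chance passes in about 1 in 20 groups. Male 1 was the animal in 5. Its change was 0.88 in XM_023055442.1 (other males 2.38 to 2.89), −1.77 in shematrin-like protein 2, XM_023045765.1 (1.51 to 2.84), −1.70 in XM_023045750.1 (0.89 to 2.38), −1.08 in XM_023045436.1 (0.87 to 1.66) and −1.97 in Wnt6, XM_023058527.1 (−2.90 to −2.63). In XM_023048870.1 male 3 had 0.65 (1.74 to 2.38). Female 4 had −0.10 in XM_023050743.1 (other females 0.63 to 0.89) and −1.02 in XM_023045436.1 (−1.97 to −1.80). Female 5 had −1.70 in XM_023049973.1 (−1.02 to −0.76), female 2 had 0.023 in XM_023043958.1 (−1.11 to −0.79) and female 3 had 1.91 in XR_002707881.1 (0.21 to 0.52), a noncoding transcript that was not called (−4.82 ± 0.97, adjusted p = 0.0713).

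The region change differed between the sexes in 2 results, the 44 transcripts called by edgeR's interaction contrast and the median absolute change, lower in males by −0.1119 (two-sided exact permutation p = 0.00216).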

How the results depend on the processing

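The count of 44 transcripts moved by more than 1.5 times under these settings: no replicate block, which drops the pairing of pieces by animal (1), left and right pieces separate with the animal as a block (809), left alone (28), right alone (10), limma on per-animal differences (20), DESeq2 (844), a summed count of at least 10 (18), over 5 CPM (104), counts summed per gene (81), an adjusted p under 0.1 (165), and, chosen after the data were seen for the female 2 library and the 2 animals, without the right LatA library of male 1 (125), without the left LatA library of female 2 (238) and without male 1 and female 2 (431). The fit that gave 809 counts the left and right pieces of a head as separate observations, although the animal is the replicate. Leaving out 1 animal gave 5 to 293. Within males 566 became 229 without the replicate block, 1452 by DESeq2 and 353 to 721 with 1 animal left out. Within females 876 became 195, 2323 and 302 to 1323. The cause of these moves was not tested. The difference in size of change (SD −0.0267) passed its test as the median absolute change (−0.1119, thinned −0.1088, over 5 CPM −0.0947). In the fits per transcript no called difference changed sign, and 1 kept its call in each; 41 of the 44 had a value over 5 CPM, and sums per gene were not compared transcript by transcript. Levels near 0.1 CPM rest on a few counts, so the folds of cuticular protein 67B and XM_023054389.1 in females are imprecise.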
